A study of Sus scrofa with 7 samples.

Results

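The genes described here are the subunits of the transcription factor NF-kB and the proteins that hold it in check, as they were expressed in pig heart muscle 14 weeks after a myocardial infarction. They were found by gene symbol in the deposited table, which held all 10 of them among 20638 genes: NFKB1, NFKB2, RELA, RELB, REL, NFKBIA, NFKBIB, NFKBIE, NFKBIZ and TNFAIP3. They took up 22 of the 63562 transcript rows, and a gene with several rows is given by its row of highest mean. The animals were male farm pigs with an infarct of the left circumflex coronary artery (LCX), and the sampled muscle was anteromidventricular. Both groups had been infarcted and had received AAV5, an adeno-associated virus used to bring a gene into cells. The vector of the 4 libraries labelled S100a1 encoded human S100A1, which binds calcium in cardiomyocytes, and that of the 3 libraries labelled hrLuc encoded the reporter enzyme luciferase. The sources used here do not give the promoter of the vectors, their dose or the age and litter of the animals, and no group without infarct or without vector was analysed here. Each title describes a pig of its own, but no label states separate litters or preparation batches, so p-values measure only the spread between these libraries.

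NF-kB is a family of dimeric transcription factors. RELA, REL and RELB carry the domain that activates transcription, whereas NFKB1 and NFKB2 encode precursors that are cut down to DNA-binding partners. In resting cells inhibitors of the IkB family, among them the products of NFKBIA, NFKBIB and NFKBIE, bind the dimers and keep them out of the nucleus or off DNA. Signals from cytokine and innate immune receptors lead the IkB kinases to mark these inhibitors for destruction, and the freed dimers then switch on inflammatory and survival genes. A second, slower route runs through the kinase NIK, the product of MAP3K14, which prompts the processing of the NFKB2 precursor and so releases dimers with RELB. Several members are themselves NF-kB targets, which closes feedback loops: NFKBIA, NFKBIE, NFKB2, RELB and TNFAIP3 are textbook examples. In the heart this system is known for its part in the inflammatory reaction to infarction and in later remodelling.

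The libraries held 28651643 to 38376242 reads with 1 row per gene, with group means of 30544035 ± 2185379 (SD, n = 3) for hrLuc and 33911713 ± 4707700 (SD, n = 4) for S100a1. Of the 9 cardiomyocyte markers looked up, 7 were in the table and all 7 were above 0 in each library. The pig S100A1 gene ranged from 6568 to 9125 normalized counts in hrLuc and from 4429 to 6804 in S100a1, but the sources used here do not say whether reads of the human transgene were counted on it, so it checks no label. Groups are therefore named by their labels. Values are read counts divided by 1 size factor per library (normalized read counts), and fold changes are S100a1 over hrLuc on the log2(value + 0.5) scale with their standard errors. The test was limma, with p-values adjusted for all 15652 genes tested (Benjamini-Hochberg) and called under 0.05. A level cannot be compared between genes here, because the values are not divided by transcript length.

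Every member was well covered, and none passed the test. The lowest read count of any member was 106 and all 10 passed the filter on low values, 10 normalized counts in 3 or more libraries, since each exceeded 10 in all 7. With limma 0 of 10 members were called, against 0.0128% of all genes tested. At an unadjusted p under 0.05 there were 2 of 10, both with lower values in S100a1, against 4.57% of all genes in that direction and 3.69% in the other. On recovered reads edgeR also called 0 of 10, against 0.0128% of all genes, and DESeq2 0 of 10, against 0.575%. Each had 2 members at an unadjusted p under 0.05. Over all genes that unadjusted share was 8.52% in edgeR. In DESeq2 735 of 15652 genes were under 0.05 and higher in S100a1, and 622 were lower. Of the 10 log2 fold changes 8 were negative, with a median of -0.13 (-0.09 without S100a1 replicate 1), where 56.5% of all genes were negative and the median of all genes was -0.02. RELB, NFKBIE and REL had groups that did not overlap, each with S100a1 lower, and 5.31% of all genes did so in that direction and 3.96% in the other. In tissue RNA of this kind, fewer cells of a type that expresses a gene and less of its RNA per cell cannot be told apart.

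**Figure D1:**
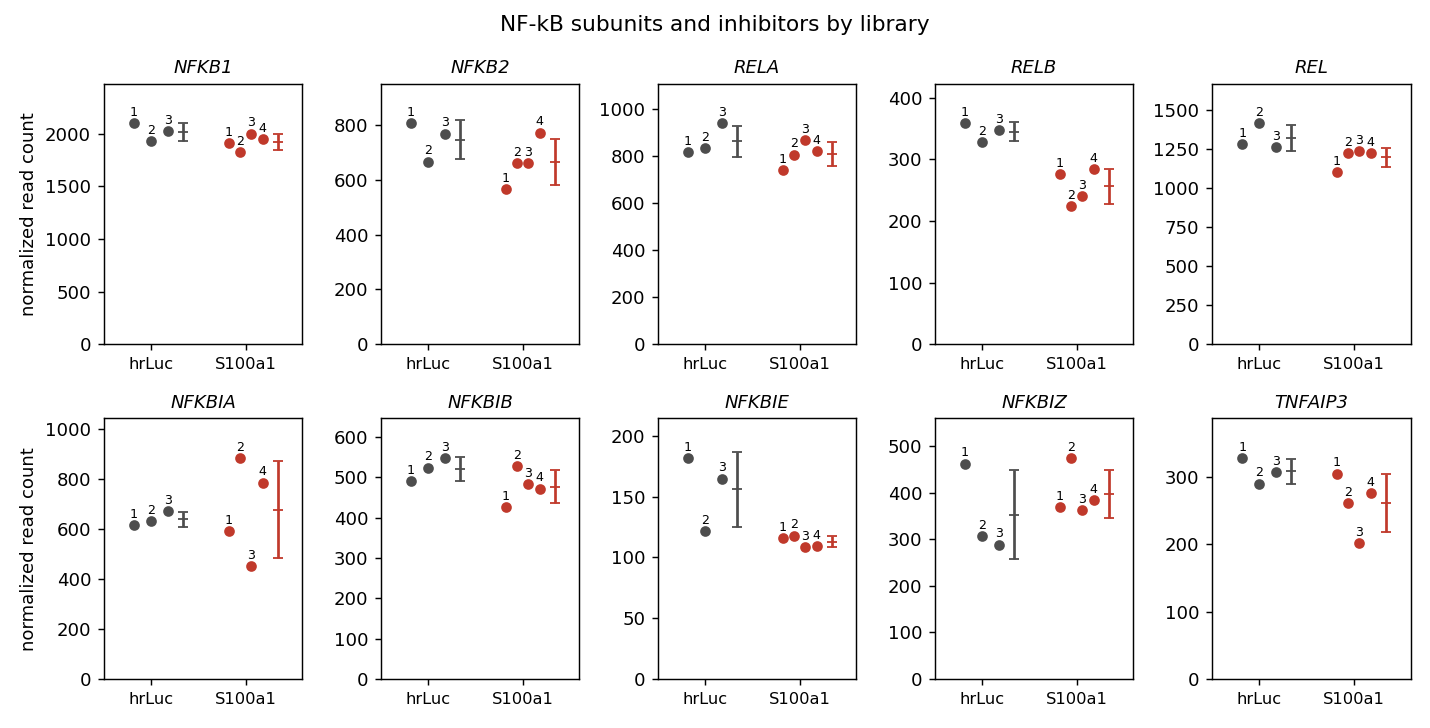
Normalized read count (vertical axis, from 0) of each member in every library, with hrLuc in grey and S100a1 in red, the replicate number above each point, and the mean and SD of the group to its right. All RELB, REL and NFKBIE points of S100a1 lie below all those of hrLuc, and the NFKBIA points of S100a1 spread from 451 to 884 around hrLuc points of 614 to 670.

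Among the activating subunits RELB stood apart in size. RELB, the activating partner of processed NFKB2 in the slower route, lies on chromosome 6 from 51444670 to 51480350 (Sscrofa11.1), where it overlaps the locus LOC110261003. In the order of replicates, its normalized read counts were 359, 328 and 348 in hrLuc. They were 276, 225, 241 and 284 in S100a1, and counts of the other genes are given in the same order. The highest S100a1 library was therefore below the lowest hrLuc library, and the means were 345 ± 15.3 (SD, n = 3) and 256 ± 28.3 (SD, n = 4). The log2 fold change was -0.43 ± 0.11, which is a ratio of 0.741 with a 95% interval of 0.618 to 0.887, and the adjusted p was 0.513 (limma). The unadjusted limma p was 0.00456, and the exact two-sided permutation test over the 35 splits gave p = 0.0286, the smallest it can give. In the authors' deposited table RELB had an adjusted p of 0.0976, the smallest of the members, and a fold change of 0.743. RELB was represented by 202 to 381 reads per library, for which counting error alone is 5.12% to 7.04%. With each library left out its log2 fold change ran from -0.48 to -0.37 and its unadjusted limma p from 0.00419 to 0.0195. Over the alternatives its adjusted p ran from 0.195 with DESeq2 to 0.927 without hrLuc replicate 1.

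RELA and REL, the other activating subunits, differed little. RELA encodes the subunit of the classical dimer, and its gene lies on chromosome 2 from 6594869 to 6602684. RELA counts were 818, 833 and 940 in hrLuc and 741, 807, 867 and 820 in S100a1, so the groups overlapped (log2 fold change -0.09 ± 0.09, adjusted p = 0.770, limma). Its 95% interval was a ratio of 0.819 to 1.07, and without hrLuc replicate 3 its log2 fold change was -0.03. REL encodes c-Rel, known above all from lymphoid cells, and lies on chromosome 3 from 80861862 to 80912233, where it overlaps PUS10. REL counts were 1282, 1415 and 1263 in hrLuc and 1104, 1226, 1236 and 1222 in S100a1. The groups of REL were apart by a narrow gap, between 1236 in the highest S100a1 library and 1263 in the lowest hrLuc library. The log2 fold change of REL was -0.14 ± 0.07 with an adjusted p of 0.635 (limma), and it was -0.09 without hrLuc replicate 2. PUS10, which may share reads with REL, was at 0.12 in the opposite direction. REL has another transcript row with fewer reads, at 812, 941 and 810 normalized counts in hrLuc and 700, 704, 778 and 774 in S100a1. In that row the log2 fold change was -0.21 (adjusted p = 0.595, limma), so the 2 rows agree in direction and neither passed.

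Because RELB and RELA were measured in the same libraries, the log2 ratio of their counts was also set out, a pair chosen after the values were seen and given without a test. RELB relative to RELA was at -1.19, -1.34 and -1.43 in hrLuc and at -1.42, -1.84, -1.85 and -1.53 in S100a1. S100a1 replicate 1 thus reached the lowest hrLuc library, and the difference of the means was -0.34. For the other pairs computed, the difference was -0.10 for NFKB2 over NFKB1, -0.32 for NFKBIE over NFKBIB and 0.29 for NFKBIA over TNFAIP3. In S100a1 replicates 1, 2 and 4 every activating subunit was below its own mean over the 7 libraries. In replicate 3 RELB and REL were below it and RELA was above it.

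NFKB1 and NFKB2, the precursors of the DNA-binding partners, had overlapping groups. NFKB1, on chromosome 8 from 118391010 to 118478927, is processed to the usual partner of RELA. Its counts were 2098, 1927 and 2021 in hrLuc and 1911, 1824, 2001 and 1947 in S100a1. This was the narrowest spread of any member, with an SD of log2 values of 0.06 over all 7 libraries, and the log2 fold change was -0.07 ± 0.06 (adjusted p = 0.774, limma). The 95% interval of the ratio, 0.862 to 1.05, was the tightest among the members. NFKB2, on chromosome 14 from 113406412 to 113414177, encodes the precursor that the slower route processes, and it overlaps the locus LOC106506113. NFKB2 counts were 806, 667 and 769 in hrLuc and 567, 663, 661 and 772 in S100a1. Replicate 4 of S100a1 lay within the hrLuc range and replicate 1 was the lowest of all (log2 fold change -0.17 ± 0.12, adjusted p = 0.692, limma). Without S100a1 replicate 1 the NFKB2 value was -0.10, and without hrLuc replicate 2 it was -0.25. The 6 NFKB2 rows held 2 distinct sets of values that differed by few reads (-0.17 in both).

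**Figure D2:**
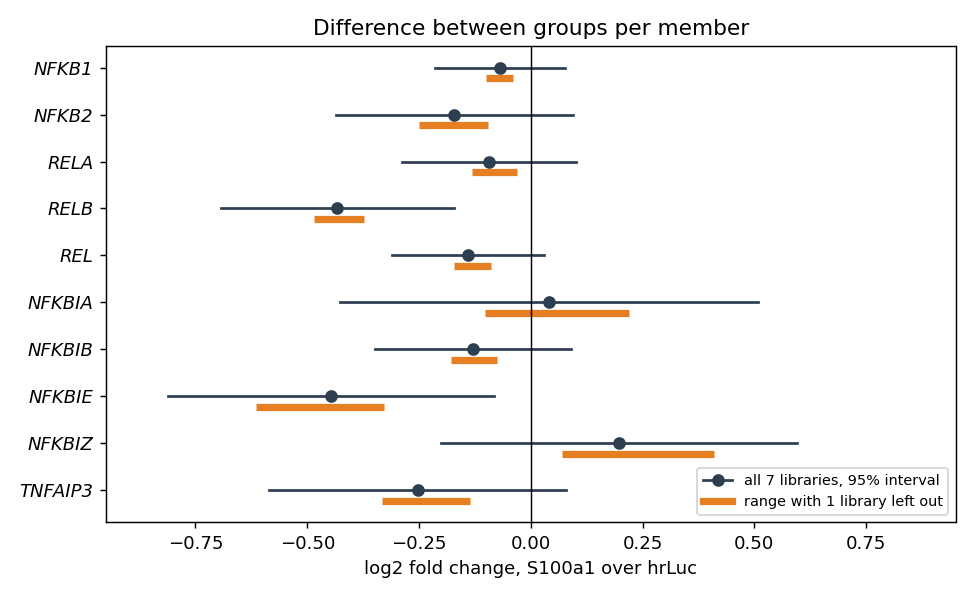
Log2 fold change of S100a1 over hrLuc (horizontal axis) for each member, with its limma 95% interval in dark blue and, in orange, the range of values when each library was left out in turn. The intervals of RELB and NFKBIE lie below 0, the other 8 include 0, and the orange range of NFKBIA spans 0, from -0.10 to 0.22.

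Of the inhibitors, NFKBIE had the largest log2 fold change in size, and its separation was narrow. NFKBIE encodes IkB epsilon, an inhibitor that is made anew upon NF-kB activity, and lies on chromosome 7 from 39255078 to 39266085, where it overlaps TMEM151B. Its counts were 182, 122 and 165 in hrLuc. In S100a1 they were 116, 118, 109 and 109, with a mean of 113 ± 4.63 (SD, n = 4) against 156 ± 30.8 (SD, n = 3) in hrLuc. The S100a1 libraries were close together, and hrLuc replicate 2 was only just above them whereas replicates 1 and 3 were far above. The log2 fold change was -0.45 ± 0.16, a ratio of 0.734 with a 95% interval of 0.569 to 0.945, with an adjusted p of 0.556 and an unadjusted p of 0.0219 (limma). The exact two-sided permutation p was 0.0286, again the smallest possible. Without hrLuc replicate 2 the NFKBIE value was -0.61. Without hrLuc replicate 1 it was -0.33 with an unadjusted p of 0.0969, and without hrLuc replicate 3 it was -0.40 with an unadjusted p of 0.0713 (limma). NFKBIE was also the member with the fewest reads, 106 to 193, for which counting error alone is 7.20% to 9.71%. TMEM151B, which may share reads with NFKBIE, was at -0.25 with groups that were also apart, S100a1 lower (adjusted p = 0.646, limma).

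NFKBIA was set apart by its spread within S100a1, not by a difference between the groups. It encodes IkB alpha, the inhibitor that signals destroy first and that NF-kB then rapidly restores, on chromosome 7 from 64508119 to 64510754. There it overlaps the locus LOC110261573. NFKBIA counts in hrLuc were 614, 631 and 670. In S100a1 they were 592, 884, 451 and 786, so that 2 libraries lay above all of hrLuc and 2 below. The SD of log2 values was 0.06 (n = 3) in hrLuc and 0.43 (n = 4) in S100a1, where the median over all genes was 0.15 in each. In S100a1 12% of all genes had a larger SD than NFKBIA, and in hrLuc 83.6% did. Counting error alone is 3.33% to 4.30% at the 542 to 900 reads behind these values, and the highest S100a1 library was at 1.96 times the lowest. The log2 fold change was 0.04 ± 0.21 (adjusted p = 0.966, limma), and its 95% interval, a ratio of 0.744 to 1.42, was the widest among the members on the log2 scale. It took the opposite sign without S100a1 replicate 2 (-0.10) or replicate 4 (-0.05). Whether the difference in spread exceeds what 3 and 4 libraries give was not tested.

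NFKBIB, which encodes IkB beta, a slowly turned over inhibitor, was steadier. It lies on chromosome 6 from 47703644 to 47712661. Its counts were 490, 524 and 548 in hrLuc and 426, 527, 483 and 472 in S100a1 (log2 fold change -0.13 ± 0.10, adjusted p = 0.722, limma). The groups overlapped, with S100a1 replicate 1 the lowest of the 7.

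NFKBIZ, an atypical nuclear IkB protein that helps to switch on a subset of inflammatory genes, had the highest log2 fold change of the members. It lies on chromosome 13 from 157261419 to 157273119. Its counts were 463, 307 and 289 in hrLuc and 369, 475, 363 and 385 in S100a1. Replicate 1 of hrLuc reached the S100a1 range while the other two hrLuc libraries were below all of S100a1. The log2 fold change was 0.20 ± 0.18 (adjusted p = 0.761, limma). Without hrLuc replicate 1 the NFKBIZ value was 0.41 with an unadjusted p of 0.0185 and an adjusted p of 0.927 (limma), and without hrLuc replicate 3 it was 0.07. The value without S100a1 replicate 2, the highest library, was 0.11.

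TNFAIP3 encodes A20, an enzyme that edits ubiquitin chains and ends signalling upstream of the IkB kinases, and lies on chromosome 1 from 26474158 to 26489771. Its counts were 327, 290 and 307 in hrLuc and 305, 261, 202 and 276 in S100a1. The groups overlapped through S100a1 replicate 1, and replicate 3 was far below the rest (log2 fold change -0.25 ± 0.15, adjusted p = 0.646, limma). Without S100a1 replicate 3 the value was -0.14, and without replicate 1 it was -0.33 with an unadjusted p of 0.0497 (limma). The 4 TNFAIP3 rows held 3 distinct sets of values, and in the row with the fewest reads the log2 fold change was -0.28. The authors' deposited table gave these 3 sets adjusted p-values of 0.728, 0.764 and 0.706. Of the 10 members, 0 were past 0.05 in the authors' deposited table, against 0.661% of the genes with an adjusted p.

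**Figure D3:**
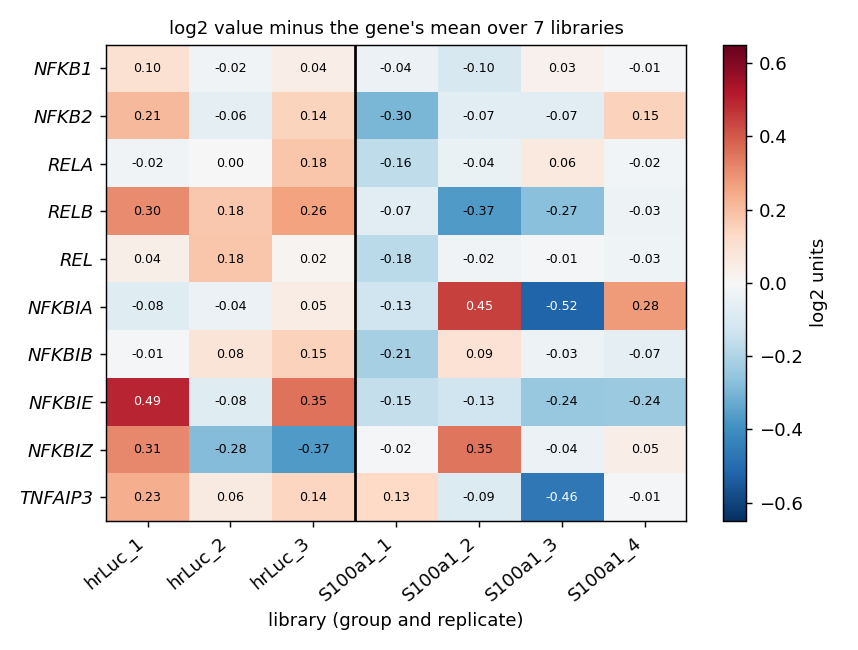
Log2 value of each member (rows) in each library (columns, hrLuc left of the line and S100a1 right of it) minus the mean of that gene over the 7 libraries, in log2 units, red above and blue below the mean. S100a1 replicate 3 is at -0.52 for NFKBIA and -0.46 for TNFAIP3, and S100a1 replicate 2 is at 0.45 for NFKBIA and -0.37 for RELB.

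Seen by library, the members did not move as a block. S100a1 replicate 1 held the lowest value of 4 members, namely NFKB2, RELA, REL and NFKBIB, and was below the mean in 9 of 10, all except TNFAIP3. Replicates 2, 3 and 4 of S100a1 were below the mean in 7, 8 and 7 members, and replicates 1, 2 and 3 of hrLuc in 3, 5 and 1. S100a1 replicate 3 held the lowest value of NFKBIA, NFKBIE and TNFAIP3. S100a1 replicate 2 held the lowest values of NFKB1 and RELB but the highest of NFKBIA and NFKBIZ. Replicate 1 of hrLuc was the highest library for 5 members, NFKB1, NFKB2, RELB, NFKBIE and TNFAIP3. The median of the centred log2 values over the 10 members was 0.15 in hrLuc replicate 1, -0.01 in replicate 2 and 0.14 in replicate 3. In S100a1 it ran from -0.14 in replicate 1 to -0.01 in replicate 4, so the lowest hrLuc library and the highest S100a1 library were close.

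For the 3 members with the largest SD of log2 values over the 7 libraries, the genes of most similar pattern were looked up among 12424 others with a mean of at least 100 normalized counts. Likeness was the root mean square difference of log2 values after each gene was centred on its own mean over the 7 libraries. Closest to NFKBIA (SD 0.31) were SLC39A8, a zinc transporter (0.11), CFI, complement factor I (0.13), and ICA1 (0.14). Closest to NFKBIE (SD 0.30) were PHETA1 (0.05), LRRC59 (0.08) and SFRP1, a secreted antagonist of WNT signalling (0.09). Closest to NFKBIZ (SD 0.27) were the locus LOC100520491 (0.08), FRMD5 (0.09) and SAMSN1 (0.11). SLC39A8, like NFKBIA, had its lowest count in S100a1 replicate 3 (124) and its highest in replicates 2 and 4 (240 and 241). PHETA1, like NFKBIE, was high in hrLuc replicates 1 and 3 (827 and 716), at 571 in replicate 2 and at 497 to 520 in S100a1. With 7 libraries and so many genes compared, close matches arise easily.

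The rest of the pathway was read through lists of ligands and receptors, adaptors, kinases, negative regulators and target genes, and 0 of their 88 tested genes passed in limma or edgeR, with 10 at an unadjusted p under 0.05 in each, beside 8.27% of all genes in limma and 8.52% in edgeR. In limma 7 of these 10 were lower and 3 higher in S100a1. Of the 88, 7 had groups apart with S100a1 lower and 2 with S100a1 higher, beside 5.31% and 3.96% of all genes. On recovered reads DESeq2 called IL1R1 (adjusted p = 0.0440, DESeq2) and no other of the 88, beside 0.575% of all genes. Of 21 ligands and receptors 17 could be tested, while IL1B, LTA, TNFSF11 and TNFSF14 had too few reads. Of the 17, 11 had a negative log2 fold change and the median was -0.14. IL1R1, the signalling receptor for interleukin 1, was at 874, 725 and 723 normalized counts in hrLuc and at 1067, 1057, 1007 and 918 in S100a1. The IL1R1 groups did not overlap, with S100a1 higher (0.39 ± 0.10, adjusted p = 0.498, limma). Over the alternatives the adjusted p of IL1R1 ran from 0.0440 in DESeq2 to 0.798 without hrLuc replicate 1 (limma), and in the authors' deposited table its adjusted p was 0.0532. It overlaps the locus LOC110259975. CD40, a receptor of antigen-presenting cells that uses the slower route, was at 129, 146 and 134 in hrLuc and at 81.9, 94.5, 102 and 123 in S100a1. Its groups were apart in the other direction (-0.45 ± 0.17, adjusted p = 0.556, limma), and it overlaps LOC106506699. TNFRSF12A, the TWEAK receptor, was at 207, 367 and 261 in hrLuc and at 632, 373, 332 and 496 in S100a1, with overlapping groups (0.71 ± 0.25, unadjusted p = 0.0202 and adjusted p = 0.549, limma). The TNF receptor gene TNFRSF1A was at -0.17 and LTBR, the lymphotoxin beta receptor, at -0.18. TNF itself had 8.55 to 30.1 normalized counts per library and LTB 14.5 to 42.3, too few to resolve a difference (0.20 ± 0.48 and -0.49 ± 0.37).

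Among the adaptors and ubiquitin enzymes 19 of 22 tested genes were negative, with a median of -0.08 that was -0.04 without S100a1 replicate 1 and -0.12 without hrLuc replicate 2. BIRC2 and RNF31 of this list were not analysed here. TRAF5, an adaptor of TNF family receptors, was at 289, 327 and 315 in hrLuc and at 245, 175, 216 and 230 in S100a1, with groups apart (-0.53 ± 0.14, adjusted p = 0.513, limma). In the authors' deposited table the adjusted p of TRAF5 was 0.0667. In the TRAF5 row with the fewest reads the log2 fold change was -0.34 with an unadjusted p of 0.0536 (limma). TRAF2, which joins TRAF3 in holding NIK low, was at -0.28 and RBCK1, a subunit of the linear ubiquitin ligase, at -0.26, both with groups apart and S100a1 lower. The groups of MAP3K7, which encodes the kinase TAK1, were apart as well (-0.13). TRAF3 was at -0.16, TRAF1 at -0.11 and BIRC3 at -0.10, all with overlapping groups.

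Among the IkB kinases and their relatives 6 of 8 genes were positive, the median was 0.04 and the values ran from -0.53 to 0.21, and 0 had groups apart. CHUK and IKBKB, the catalytic IkB kinases, were at 0.01 ± 0.09 and 0.05 ± 0.07, and MAP3K14, which encodes NIK, was at -0.04 ± 0.10. IKBKE, a related kinase with 22.2 to 72.5 normalized counts, was at -0.53 ± 0.34, or -0.24 without S100a1 replicate 2.

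Other IkB-like proteins and negative regulators were split, with 8 of 15 negative and a median of -0.002. BCL3, an atypical IkB protein that binds the NFKB1 and NFKB2 products, was at 292, 295 and 278 in hrLuc and at 263, 198, 244 and 274 in S100a1. The BCL3 groups were apart by a gap of a few counts, between 274 and 278 (-0.25 ± 0.13, adjusted p = 0.635, limma). NFKBID, another nuclear IkB protein that overlaps HCST, was at 0.06. TNIP1 and TNIP2, partners of A20, were at 0.13 and -0.31, and CYLD, a deubiquitinase, was at 0.06 ± 0.06.

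Of 30 textbook target genes 26 could be tested, and 19 of these were negative, with a median of -0.08. CCL2, the chemokine that draws monocytes, was at 227, 175 and 150 in hrLuc and at 114, 116, 119 and 133 in S100a1. Its groups were apart (-0.59 ± 0.16, adjusted p = 0.513, limma). The CCL2 value was -0.43 without hrLuc replicate 1, its highest library, and -0.73 without hrLuc replicate 3. BCL2L1, which encodes the survival protein BCL-xL, was at 3870, 3854 and 3420 in hrLuc and at 4516, 5841, 4230 and 4283 in S100a1, apart in the other direction (0.33 ± 0.12, adjusted p = 0.543, limma). It overlaps LOC106506650. The adhesion molecules ICAM1 and VCAM1 were at -0.31 ± 0.15 and -0.06 ± 0.13, with overlapping groups. The target list as a whole had its highest library score in hrLuc replicate 1 (0.23), against -0.09 to 0.01 in the other 6 libraries, the score being the median of the centred log2 values.

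**Figure D4:**
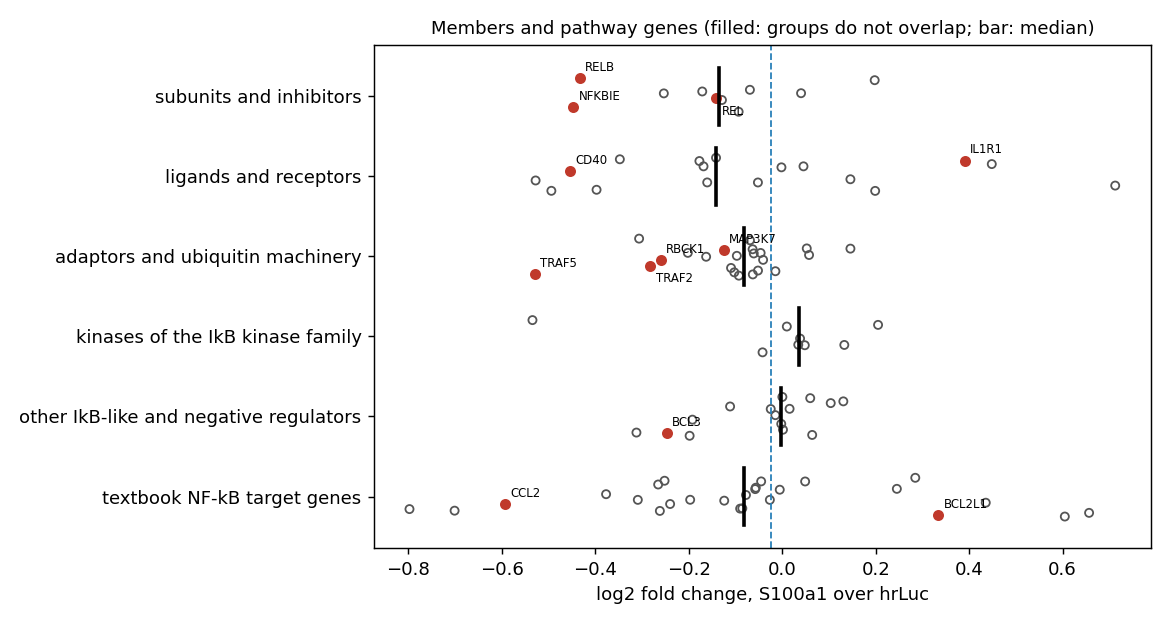
Log2 fold change of S100a1 over hrLuc (horizontal axis) for each tested gene, by list (vertical axis, with random vertical offset). Filled red points are genes whose groups do not overlap, open points overlap, black bars are list medians and the dashed line is the median of all 15652 genes (-0.02). RELB, NFKBIE, CD40, TRAF5 and CCL2 are filled points below -0.4, and IL1R1 and BCL2L1 are filled points above 0.3.

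Markers of cell types were set beside these values. The 10 T and natural killer cell markers were above 0 in all libraries, 9 of 10 had a negative log2 fold change, and the median was -0.80. Of the 10, 4 were at an unadjusted limma p under 0.05 and 3 had groups apart, all lower in S100a1. In the authors' deposited table CD5 of this list had an adjusted p of 0.0170. Their summed normalized counts were 1025, 542 and 897 in hrLuc and 448, 471, 611 and 576 in S100a1. The order within hrLuc was shared by NFKBIE, RELB, NFKB1, NFKB2 and TNFAIP3 and not by the other 5 members. Few orders are possible with 3 libraries, and the share of all genes with this order was not counted. None of these named members shared the order within S100a1, where the sum was highest in replicate 3. In that library NFKB1 had its highest S100a1 count, and NFKBIE and TNFAIP3 had their lowest. The 3 B and plasma cell markers with enough reads to be tested, PAX5, JCHAIN and CD22, were all negative (median -0.22) and summed to 464, 190 and 202 in hrLuc and to 158 to 188 in S100a1. Macrophage and monocyte markers (9 of 9 above 0, 5 of 9 negative) overlapped, at 6544 to 9401 in hrLuc and 5911 to 9164 in S100a1. Neutrophil markers summed to 349 to 537 in hrLuc and 360 to 477 in S100a1, and S100A8, S100A9, S100A12 and MPO were at 0 in at least 1 library. Endothelial markers summed to 26644 to 30854 in hrLuc and 25900 to 28670 in S100a1 (7 of 8 negative, median -0.09). Fibroblast markers were at 131874 to 152539 in hrLuc and 84897 to 137275 in S100a1, with S100a1 replicate 1 the lowest (7 of 8 negative, median -0.27, with 3 at an unadjusted limma p under 0.05 and 2 with groups apart, all lower). Smooth muscle and pericyte markers summed to 16783 to 23344 in hrLuc and 15825 to 19819 in S100a1 (6 of 7 negative, median -0.34). Cardiomyocyte markers summed to 4254882 to 4865056 in hrLuc and 4393511 to 5747009 in S100a1 (6 of 7 positive, median 0.08). Without hrLuc replicate 1 the cardiomyocyte median was -0.001. The endothelial and cardiomyocyte lists each had 1 marker under 0.05 and 1 with groups apart, higher in S100a1. RYR2, a cardiomyocyte marker, had an adjusted p of 0.0412 in the authors' deposited table. Of the tested B and plasma cell markers 1 had groups apart, S100a1 lower. Over all genes 4.57% were under 0.05 and lower and 3.69% higher, and 5.31% were apart and lower and 3.96% higher. The part of these cell types in the RELB, NFKBIE and REL values was not tested.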

How the data were processed

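RNA sequencing of 7 heart libraries (3 hrLuc, 4 S100a1, grouped by title) was analysed from 1 table of 63562 transcript rows, all matched to RefSeq genes of Sscrofa11.1. DESeq2 1.33.1, FastQC 0.11.8 and R 4.1.2 stand in the submitters' processing notes, with the build Sscrofa11.1 and no stated role; the sources used here give no aligner, counting mode or strand handling. Library values as deposited are a signal, read counts divided by 1 size factor per library: 100% of values were whole multiples of 1 read (within 0.01), worth 0.824 to 1.14 units. The deposited log2 and ratio columns and the deposited p-value column are the authors' own comparison. Because 34297 rows repeat the values of another row of their gene, 1 row was kept per symbol.

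limma 3.58.1 (R 4.3.3) with a mean-variance trend was fitted to log2(value + 0.5) without covariates (5 residual and 3.85 prior degrees of freedom, two-sided), in the branch planned for normalized values. edgeR 4.0.16 and DESeq2 1.42.0 were run on the recovered reads. The fits were also run on simulated counts. Every change planted there was larger in size than that of any member, so changes of the size seen here were not examined. Intervals are 95%. Alternatives were normalization, filter, pseudocount, prior, transcript row, replicate block and each library left out. Named genes are the members, a fixed core of 20 pathway genes, the 2 of smallest p per list, and the 3 genes most alike to each of 3 members; genes outside this rule are S100A1, PUS10 and TMEM151B (the latter pair overlap members), MAP3K7, chosen after its values were seen because its groups were apart, the cell type markers, and those in the closing section. Members and lists were chosen with earlier results of these data known, and lists were not tested. One gene of the fixed core is not reported here. No sequences are printed.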

Additional observations from a re-analysis of the deposited data

Results flagged for a closer look

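Among the 46 genes named, 3 had a library far from the other 3 of S100a1, by a gap above 0.829 of the group's range; chance alone gives this in about 1 in 20 groups. REL was at 1104 normalized counts in S100a1 replicate 1, against 1222 to 1236 in the other replicates. SAMSN1, one of the genes most alike to NFKBIZ, was at 395 in S100a1 replicate 2, against 265 to 284. SFRP1, one of the genes most alike to NFKBIE, was at 653 in S100a1 replicate 3, against 790 to 816. Groups of 3 were not examined in this way, so hrLuc has no such entry.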

How the results depend on the processing

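No alternative called any member in either direction (0 of 10 in each), and 9 members kept the sign of their log2 fold change in all of them. The exception was NFKBIA, at -0.046 with the replicate block and from -0.10 to 0.22 with each library left out. The replicate block gave each member the same log2 fold change as leaving out S100a1 replicate 4, because no hrLuc library has that number. The number of genes called, 1 higher and 1 lower, was 2 higher with quantile normalization and with summed transcript rows, 0 lower with median centring, 0 and 0 with the replicate block, and 54 higher and 36 lower with DESeq2. With each library left out it ran from 0 to 1 higher and from 0 to 3 lower. At an unadjusted p under 0.05 the split of 578 higher and 716 lower genes became 945 and 443 with median centring, which moved the median of all genes from -0.02 to 0.02. Median centring raised the log2 fold change of every member as well. RELB was then at -0.39, NFKBIE at -0.40, REL at -0.09, RELA at -0.05, NFKB1 at -0.02 and NFKBIZ at 0.24. The list of other IkB-like proteins had a median of 0.044 with median centring. With each library left out the medians ran from -0.20 to 0.00070 for ligands and receptors, from -0.12 to -0.036 for adaptors, from 0.023 to 0.047 for kinases, from -0.029 to 0.015 for other IkB-like proteins and from -0.18 to -0.037 for target genes. The cause of these shifts was not tested. The replicate numbers gave no clear sign of pairing: deviations of same-numbered libraries from their group means correlated at -0.02, -0.08 and 0.08. Replicate 3 of hrLuc correlated best with its own number, and hrLuc replicates 1 and 2 did not. With so few pairs this cannot exclude a pairing. Depth limits NFKBIE most among the members, with 106 reads in its lowest library.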

Other observations

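Of the pathway genes, 3 had an unadjusted limma p under 0.05 with overlapping groups: TNFRSF12A, which was higher in S100a1 and is described above, and IL18 and CD83, which were picked out after their values were seen. IL18, an inflammasome-dependent cytokine, was at 94.1, 67.4 and 62.5 normalized counts in hrLuc and at 52.4, 41.1, 47.8 and 64.6 in S100a1 (log2 fold change -0.53, adjusted p = 0.588, limma). CD83, a surface protein of mature dendritic cells and activated B cells, was at 199, 139 and 170 in hrLuc and at 127, 122, 146 and 123 in S100a1 (log2 fold change -0.38, adjusted p = 0.575, limma). In both genes hrLuc replicate 1 was the highest library, and only S100a1 replicate 4 for IL18 and S100a1 replicate 3 for CD83 were above the lowest hrLuc library.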
